A study of Mus musculus with 6 samples.

Results

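Complement is a cascade of blood and tissue proteins, and 9 of its genes were followed here among the 56691 genes of the deposited table. These were C3, C4b, C4bp, Cfb, C1ra, C1s1, Serping1, Cd55 and Cd59a, found by their symbols, and 9 of 9 had a row. Levels are given in CPM, the reads of a gene per 1000000 counts of its library after TMM adjustment. The members were chosen by their CPM in these same libraries, dopamine against blank and library by library, so their levels and fold changes stand here as descriptions. The cells are KVTR cells, which the labels call mouse primary clear cell renal carcinoma cells. Total RNA was amplified and sequenced from dopamine-treated cells in 3 libraries (dopamine 1, 2 and 3). Cells called blank, the controls without dopamine, also gave 3 libraries. These were blank 2, blank 3 and 1 whose count column has no number, called blank U. The sample titles also list a blank 1, which may be blank U, but no label links them. Dose, duration and any modification of the line were not given in the labels, and nothing there says that libraries came from separate cultures, so spreads and p-values may be technical. Total counts ran from 16771499 to 23375622 per library.

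Several routes start complement, and all lead to the cleavage of C3. In the classical route the proteases C1r and C1s cleave C4 and C2. In the alternative route factor B binds cleaved C3 and amplifies it, and the terminal proteins then form a membrane pore. Regulators hold the cascade back: C1 inhibitor blocks C1r and C1s, C4b-binding protein and decay accelerating factor act on the convertases, and CD59 blocks the pore. The liver makes most circulating complement, but kidney tubule cells and astrocytes are known to make C3 as well.

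Markers of renal tubule were mixed and mostly low. Of 15 tubule and renal carcinoma markers, 6 stayed under 1 CPM in each library, Aqp2 had no count in any library, and Pax8 stayed at 0.383 to 1.15 CPM, whereas 3 averaged at least 5 CPM: the endocytic receptors Lrp2 (87.0 to 383 CPM) and Cubn (3.45 to 8.13 CPM) and the water channel Aqp1 (14.4 to 115.7 CPM). Of 14 astrocyte markers, 12 averaged at least 5 CPM, and their summed level ran from 1487 to 8069 CPM with blank and from 1530 to 6800 CPM with dopamine. Several of the listed markers were thus at or near 0, whereas Ca9, a renal carcinoma marker, lay at 1.09 to 2.81 CPM. The cells are called KVTR cells below. Libraries also did not sort by treatment: blank 2 correlated with dopamine 2 and dopamine 3 at 0.979 and 0.978 over 15420 tested genes, whereas its values with blank 3 and blank U were 0.950 and 0.912.

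Of the 9 members, 7 share their 3 highest libraries, but the members were chosen by these same values, and shared regulation was not tested. The upstream sequences below are shown because C3 and C4bp have the widest swings of the members, whereas Cd55 does not follow them. They are the 250 bases before the RefSeq start of each gene (GRCm38.p6), read 5′ to 3′ on the gene's strand, with matches to the searched motifs in capitals. C3 is at chr17:57228137-57228386 (minus strand), C4bp at chr1:130661619-130661868 (minus), C1s1 at chr6:124542360-124542609 (minus) and Cd55 at chr1:130462745-130462994 (minus).
C3: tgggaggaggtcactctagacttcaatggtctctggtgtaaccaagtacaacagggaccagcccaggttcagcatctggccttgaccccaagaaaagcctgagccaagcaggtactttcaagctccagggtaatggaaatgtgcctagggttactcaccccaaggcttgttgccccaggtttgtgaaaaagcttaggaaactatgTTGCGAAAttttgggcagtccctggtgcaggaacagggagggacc
C4bp: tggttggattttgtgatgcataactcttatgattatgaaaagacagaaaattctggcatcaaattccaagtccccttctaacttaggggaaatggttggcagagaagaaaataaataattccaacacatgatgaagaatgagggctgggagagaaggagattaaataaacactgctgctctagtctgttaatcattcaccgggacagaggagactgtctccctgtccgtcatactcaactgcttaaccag
C1s1: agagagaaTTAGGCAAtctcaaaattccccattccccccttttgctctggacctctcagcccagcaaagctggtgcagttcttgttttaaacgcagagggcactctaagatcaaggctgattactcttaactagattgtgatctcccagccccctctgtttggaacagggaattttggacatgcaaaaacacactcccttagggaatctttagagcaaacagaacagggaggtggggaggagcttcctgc
Cd55: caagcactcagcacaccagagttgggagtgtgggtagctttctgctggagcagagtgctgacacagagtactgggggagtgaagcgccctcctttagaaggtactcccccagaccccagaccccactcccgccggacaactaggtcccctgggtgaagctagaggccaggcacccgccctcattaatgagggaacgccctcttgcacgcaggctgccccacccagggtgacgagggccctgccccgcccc

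A set of 6 motifs of factors known to drive complement or cAMP-responsive genes were searched on both strands: a kappaB site, C/EBP (TTGCNNAA), GAS (TTCNNNGAA), ISRE (GAAA, any 2 bases, GAAA), CRE (TGACGTCA) and AP-1 (TGANTCA). GAS and ISRE share the letters GAA and can overlap. RefSeq windows were found for 6 of the 9 members, not for C4b, Cfb and Serping1. C3 held a C/EBP match, TTGCGAAA, from 45 to 38 bases before the start, and the outer of 2 C1s1 windows held TTAGGCAA on the other strand from 242 to 235 bases before it. The C/EBP pattern is present in 9.56% of the 32851 RefSeq windows of this length. Cd59a held an ISRE match, GAAAGGGAAA, a pattern found in 2.98% of windows. The windows of C4bp, C1ra and Cd55 held none of the 6. The Cd55 window was the richest of the members' in G and C, at 64%, and that of C4bp the poorest, at 40.8%. Among the genes of these factors, Cebpd, a C/EBP family factor of the acute phase, lay at 296, 162 and 82.1 CPM in blank 2, blank 3 and blank U and at 40.8, 258 and 278.5 CPM in dopamine 1, 2 and 3. Its relative Cebpb lay at 74.2, 52.0 and 16.5 CPM and at 26.3, 121 and 81.9 CPM in the same order. Both had their 3 highest values in blank 2, dopamine 2 and dopamine 3. The same held for 8 of 24 tested genes of inflammatory inducers and factors, both included, and for 14.8% of all tested genes. A link between these factors and C3 was not tested.

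C3, the central protein of the cascade, was the most abundant member and among the most variable genes of the study. It lay at 4653, 671 and 17.2 CPM in blank 2, blank 3 and blank U, and at 622, 8540 and 6374 CPM in dopamine 1, 2 and 3. Dopamine 2, dopamine 3 and blank 2 were high, blank 3 and dopamine 1 were intermediate and close to each other, blank U was low, and the groups overlapped. The highest library held 496 times the level of the lowest. Ranked by CPM among all genes, C3 was in place 4 in dopamine 2, 5 in dopamine 3 and 8 in blank 2, in places 146 and 150 in dopamine 1 and blank 3, and in place 8306 in blank U. Its standard deviation of log2 CPM over the 6 libraries, 3.36, was the 8th largest of the 15420 genes tested, whose median was 0.41. Group means were 1780 ± 2509 CPM in blank and 5179 ± 4092 CPM under dopamine (SD, n = 3), a log2 fold change of 1.54 ± 1.61 (SE). Taken between means of log values, in limma on log2(FPKM + 1), it was 2.93. Of the variance of C3 in log2 CPM, 25.4% lay between the treatment groups, against a median of 9.69% over all tested genes.

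**Figure D1:**
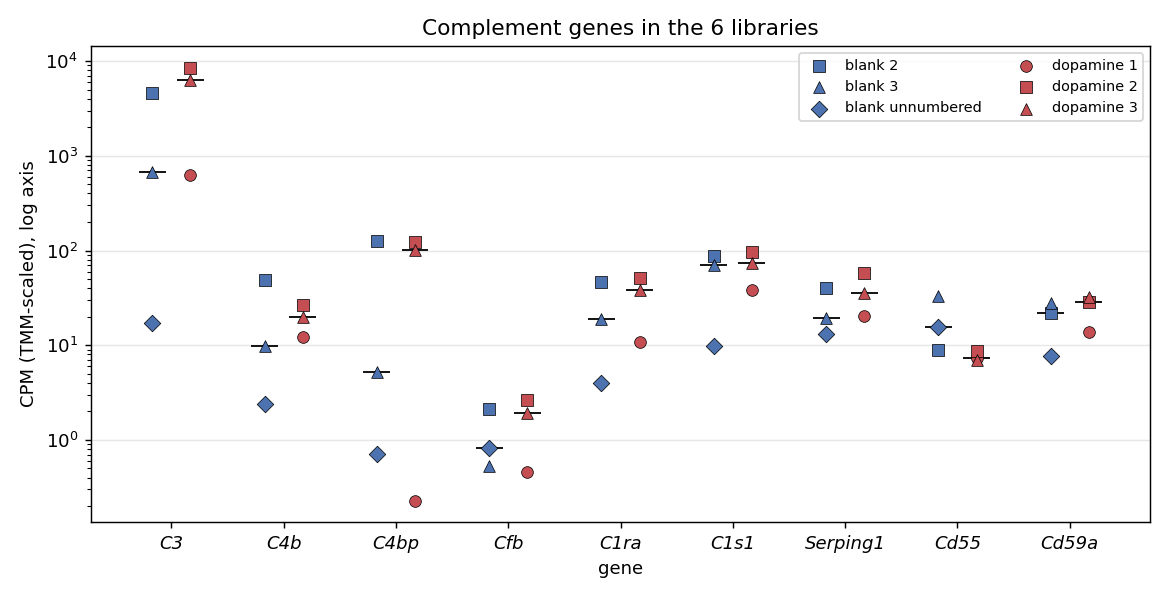
CPM on a log axis (vertical) for the 9 complement genes (horizontal), with 1 point per library (blank U is marked unnumbered), blank in blue and dopamine in red, and a bar at the median of each group. C3 spans 17.2 to 8540 CPM and its groups overlap, as they do for each member other than Cd55.

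Cfb, the factor B protease that pairs with C3 in the alternative pathway, was near the limit of measurement. Counts were 37 in blank 2, 10 in blank 3 and 17 in blank U, then 8, 60 and 42 in dopamine 1, 2 and 3, which gave 0.458 to 2.65 CPM. The same libraries were high as for C3, but the span was 5.78-fold, and the log2 fold change was 0.53 ± 0.78 (SE). The predicted gene Gm20547 overlaps Cfb on the same strand and had 0 counts in each library, and the handling of reads common to both is not stated. Per kilobase of exon, C3 exceeded Cfb 11.6 times in blank U and 1836 times in dopamine 3, so the 2 genes did not keep a fixed ratio.

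C4bp, which encodes C4b-binding protein, a soluble cofactor that inactivates C4b, was either plentiful or nearly absent. It lay at 126, 5.23 and 0.718 CPM in blank 2, blank 3 and blank U and at 0.229, 122 and 101 CPM in dopamine 1, 2 and 3. Of the 6 libraries, 3 were within 101 to 126 CPM and the rest at 5.23 CPM or less, with high and low libraries in both groups. Dopamine 1 had 4 counts and dopamine 2 had 2760. C4bp had the 2nd largest standard deviation of all tested genes (3.88 log2 units), and 1.84% of its variance lay between the groups. The group means were 44.1 ± 71.2 CPM in blank and 74.4 ± 65.0 CPM under dopamine (SD, n = 3), and the log2 fold change was 0.76 ± 1.93 (SE). C3 and C4bp parted in dopamine 1, where C3 was 3557 times as abundant per kilobase as C4bp, against 31.4 to 168 times in the other 5 libraries. Blank 3 and dopamine 1 thus had similar C3 (671 and 622 CPM) but 98 and 4 counts of C4bp.

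The classical pathway members followed the same libraries over a narrower span. C4b, whose product is cleaved to form the classical C3 convertase, lay at 48.3, 9.87 and 2.39 CPM in blank 2, blank 3 and blank U and at 12.3, 26.4 and 19.9 CPM in dopamine 1, 2 and 3. Blank 2 was the highest and blank U the lowest, so the dopamine values lay inside the blank range. Its log2 fold change was -0.04 ± 0.93 (SE), with a 95% interval from -2.24 to 2.16. Its near-identical neighbour C4a stayed at 0.574 to 1.33 CPM, and reads may be shared between the pair.

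C1ra, which encodes the protease C1r, lay at 46.9, 18.7 and 3.97 CPM in the blank libraries in that order and at 10.9, 51.7 and 38.5 CPM in the dopamine libraries. C1s1, which encodes its substrate protease C1s, lay at 87.0, 69.6 and 9.86 CPM and at 38.4, 95.7 and 73.8 CPM. Both were lowest in blank U and highest in dopamine 2, and the groups overlapped. They were the closest pair among the 36 pairs of members, with a root mean square difference of 0.42 log2 units between their centred profiles. They also lie next to each other on chromosome 6 in the deposited table (GRCm39), C1ra at 124489364 to 124500402 on the plus strand and C1s1 at 124507304 to 124519318 on the minus strand. The log2 fold changes were 0.54 ± 0.87 and 0.32 ± 0.72 (SE). The ratio of C1s1 to C1ra per kilobase stayed between 1.76 and 3.54. Their paralogs C1rb (0.479 to 4.77 CPM) and C1s2 (1.29 to 6.59 CPM) had lower levels and may share reads with them.

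Serping1, which encodes C1 inhibitor, varied least among the soluble members. It lay at 40.7, 19.6 and 13.3 CPM in blank 2, blank 3 and blank U and at 20.5, 58.1 and 36.0 CPM in dopamine 1, 2 and 3. The span was 4.39-fold, the order of libraries resembled that of C3, and the groups overlapped. Its log2 fold change was 0.64 ± 0.51 (SE). Per kilobase it was below C1s1 in 5 libraries (ratios of 0.379 to 0.818) and above it in blank U (1.81), where both C1r and C1s transcripts were at their lowest.

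Of the membrane regulators, Cd55 did not share the pattern of C3, and Cd59a shared it in part. Cd55, which encodes decay accelerating factor, lay at 8.96, 33.2 and 15.6 CPM in blank 2, blank 3 and blank U and at 7.33, 8.65 and 6.95 CPM in dopamine 1, 2 and 3. It was the single member whose groups did not overlap, with each dopamine library below each blank library, but blank 2 lay only just above dopamine 2. Such a separation, with dopamine below, was found for 4.47% of all tested genes (8.48% in either direction). Group means were 19.2 ± 12.6 CPM in blank and 7.64 ± 0.89 CPM under dopamine (SD, n = 3), and the log2 fold change was -1.33 ± 0.48 (SE), which became -0.68 without blank 3. The dopamine libraries were close together and the blank libraries wide apart, and 50.7% of the variance of Cd55 in log2 CPM lay between the groups.

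Cd59a, which encodes the membrane inhibitor of the terminal pore, lay at 21.8, 28.0 and 7.61 CPM in the blank libraries in that order and at 13.7, 28.6 and 32.4 CPM in the dopamine libraries. Blank 3 was as high as dopamine 2 and above blank 2, unlike for C3. As for C3, blank U was lowest, dopamine 1 next lowest, and dopamine 2 and dopamine 3 highest. The root mean square difference of its centred profile was 0.511 log2 units from C1s1, 1.116 from Cd55 and 2.446 from C3. The span of 4.26-fold was the smallest of the 9, and the log2 fold change was 0.38 ± 0.52 (SE). The paralog Cd59b had 1.10 to 2.56 CPM, and Cd55b, the paralog of Cd55, had 2 counts or fewer in each library. The predicted genes Gm16083 and Gm16567 lie antisense to Cd55 and C1s1 and had 0 to 3 and 0 counts per library.

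In edgeR's quasi-likelihood test across all 15420 genes, 0 of the 9 members passed a Benjamini-Hochberg adjusted p of 0.05, as did 0.0% of all genes (smallest adjusted p = 0.9996). The unadjusted p was under 0.05 for 1 of 9 members, Cd55, beside 2.94% of all genes. In DESeq2, 0 members and 0.13% of all genes passed. Since this contrast was among the values that chose the members, nothing is read from these counts. All 9 members passed the filter on low counts. Fold changes were on the higher side with dopamine for 7 members, beside 51.7% of all tested genes. Their median was 0.53, where all tested genes had a median of 0.01. Nothing is read from these values either.

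**Figure D2:**
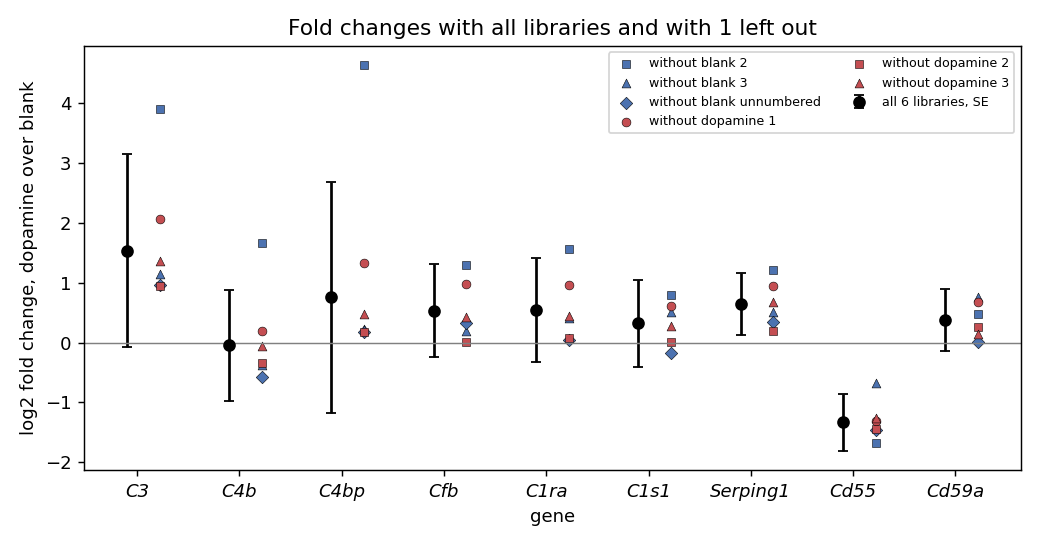
Log2 fold change of dopamine over blank (vertical) for the 9 genes (horizontal), with all 6 libraries as a black point and its SE, and with each library left out as coloured points. Leaving out blank 2 moves C3 to 3.91 and C4bp to 4.64, and Cd55 stays below 0 throughout.

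Single libraries set the size of these differences. Without blank 2 the log2 fold changes were 3.91 for C3, 4.64 for C4bp, 1.67 for C4b, 1.56 for C1ra, 1.29 for Cfb, 1.21 for Serping1 and 0.80 for C1s1. Without blank U they were 0.96 for C3, 0.18 for C4bp, -0.57 for C4b, 0.04 for C1ra, 0.34 for Serping1, 0.33 for Cfb, -0.17 for C1s1 and 0.0035 for Cd59a. Without dopamine 2 they were 0.95 for C3, 0.18 for C4bp, 0.08 for C1ra, 0.19 for Serping1 and 0.02 for Cfb. In the 6 leave-one-out fits C4b and C1s1 changed sign at least once, and the other 7 members kept theirs, Cd55 on the lower side.

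Compared per kilobase of exon, the mean level over the 6 libraries was 677 CPM per kilobase for C3, then 19.9 for C1s1, 13.5 for Serping1, 12.2 for Cd59a, 9.54 for C1ra, 8.80 for C4bp, 3.49 for C4b, 2.77 for Cd55 and 0.501 for Cfb. The ranges of neighbours in this order overlapped, other than those of Cd55 (1.43 to 6.85) and Cfb (0.162 to 0.937). C3 did not lead in each library. In blank U it stood at 3.35 CPM per kilobase, below Serping1 at 5.70 and Cd59a at 4.203.

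Of the 9 members, 7 had their 3 highest values in blank 2, dopamine 2 and dopamine 3, a pattern shown by 14.8% of all tested genes. The exceptions were Cd55 and Cd59a, the membrane regulators, the latter with blank 3 in place of blank 2. The members were chosen by these same values, library by library, so nothing is read from their share. Astrocyte markers moved with the same libraries: 9 of 13 tested markers had that top 3, among them Gfap, an intermediate filament of astrocytes, at 1627, 1217 and 1314 CPM in those libraries against 814, 32.3 and 102 CPM in blank 3, blank U and dopamine 1. Leukocyte markers were low, with 10 of 13 under 1 CPM in each library, no count of Cd3e or Ncr1, and Ptprc, the pan-leukocyte gene, at 0.636 CPM or less. Their summed level was 36.3 to 80.9 CPM under blank and 86.3 to 173 CPM under dopamine, mostly Cd68 and the lysozyme gene Lyz2. Of 4 tested leukocyte markers, 2 had their 3 highest values in blank 2, dopamine 2 and dopamine 3, among them Lyz2 (32.9 to 38.2 CPM against 0.587 to 13.2 CPM). Cd68 did not: it lay at 19.6 to 55.0 CPM under blank and at 62.8 to 128 CPM under dopamine. Such a separation, with dopamine above, was found for 4.0% of all tested genes. Hepatocyte markers were nearly absent, with 6 of 7 under 1 CPM in each library, Alb at 0.318 CPM or less, and a summed level of 0.383 to 3.29 CPM under blank and 0.114 to 3.68 CPM under dopamine. Fibroblast and pericyte markers summed to 1883 to 3402 CPM under blank and 640 to 3253 CPM under dopamine, lowest in dopamine 1. Summed neuron markers ran the other way, with 280, 264 and 399 CPM in blank 2, dopamine 2 and dopamine 3 and 899, 628 and 767 CPM in blank 3, blank U and dopamine 1. Single neuron markers did not all do so: 2 of the 5 tested, Map2 and Tubb3, were lowest in blank U, like C3. Endothelial markers summed to 48.6 to 210 CPM under blank and 14.0 to 58.3 CPM under dopamine, mostly Cdh5 (5.44 to 206 CPM), while Pecam1 and Tie1 stayed under 1 CPM. In a bulk sample, fewer cells of a type and less RNA per cell cannot be told apart, and the part of these markers in the complement levels was not tested.

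The profiles most like each member were found among 11212 genes averaging at least 5 CPM, by root mean square difference of centred log2 CPM over the 6 libraries. For C3 the nearest were Lcn2, an acute-phase protein that binds iron-carrying siderophores (0.81), the apolipoprotein gene Apoc1 (0.82), the chitinase-like gene Chil1 (1.03), Lbp, which encodes lipopolysaccharide-binding protein (1.08), and the receptor gene Gpr37l1 (1.25). Lcn2 lay at 3358, 913 and 47.2 CPM in blank 2, blank 3 and blank U and at 1226, 5699 and 4105 CPM in dopamine 1, 2 and 3. Its libraries thus stood in nearly the same order as for C3, with blank 3 and dopamine 1 exchanged. The set depended on the low library: 0 of these 5 were among the 5 nearest without blank U and 2 of 5 without dopamine 1, and 4 or 5 without any other library. For C4bp the nearest was Rhag, an ammonium transport protein of the Rh family (0.61), at 15.1, 0.747 and 0 CPM in blank 2, blank 3 and blank U and at 0, 9.75 and 9.86 CPM in dopamine 1, 2 and 3. Adora1, the adenosine A1 receptor gene, was nearest to both C4b (0.32) and C1ra (0.22). For the others the nearest were Bace2 for C1s1 (0.17), Rdh5 for Serping1 (0.17), Tapbp for Cfb (0.20), Adamts2 for Cd55 (0.16) and Fads3 for Cd59a (0.09).

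**Figure D3:**
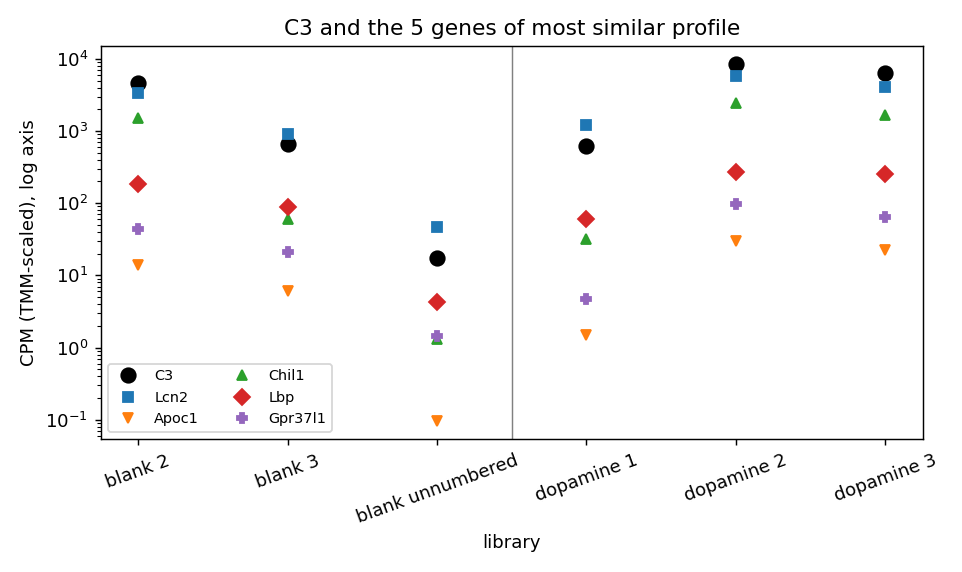
CPM on a log axis (vertical) in the 6 libraries (horizontal) for C3 and the 5 genes of most similar profile, with 1 point per gene and library and a line between blank and dopamine. The unnumbered blank library is lowest for each of the 6 genes, with C3 at 17.2 CPM and Lcn2 at 47.2 CPM.

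The rest of the pathway was partly silent. Of 53 further complement genes listed by textbook role, 25 were tested, 26 stayed under 1 CPM in each library and 6 had no count at all, a bound of at most 0.179 CPM given the depth of the shallowest. Both edgeR and DESeq2 called 0 of the 25, and 0 had an unadjusted edgeR p below 0.05. Their fold changes lay on the higher side for 16 and the lower side for 9, with a median of 0.18, beside 0.01 for all tested genes. Among them 11 of 25 had the top 3 of C3 (blank 2, dopamine 2 and dopamine 3), beside 14.8% of all tested genes. Some of the 11 passed the filter on low counts only through those libraries. C1qb had 13, 25 and 30 counts there and 3 or fewer elsewhere, and C1qc had 12, 46 and 25 against 2 or fewer. The filter thus partly set this share, and nothing is read from it. Of the 25, 11 were lowest in dopamine 1 and 9 in blank U, the lowest library for C3, where the 9 include C1qc, with 0 counts in both.

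Clu, which encodes clusterin, an inhibitor of the terminal complex, lay at 1047, 585 and 68.9 CPM in blank 2, blank 3 and blank U and at 657, 1172 and 974 CPM in dopamine 1, 2 and 3 (log2 fold change 0.72 ± 0.82 SE), lowest like C3 in blank U.

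Of the 10 classical pathway genes, the 3 members included, 7 were lowest in blank U like C3, and 1, C2, was highest there. Among the 7, C1qc had 0 counts in dopamine 1 as well, and C1qb had 1 count in both blank U and blank 3. The 3 members were chosen by these values. C2, which lies directly beside Cfb on chromosome 17 and supplies the protease of the classical convertase, was at 18.5, 4.80 and 24.2 CPM in blank 2, blank 3 and blank U and at 2.80, 18.2 and 14.2 CPM in dopamine 1, 2 and 3 (log2 fold change -0.43 ± 0.77 SE). It was highest where C3, C4b and C1s1 were lowest, although Gm20547 overlaps C2 as well. Masp1, a lectin pathway protease, was at 86.2, 24.1 and 151 CPM and at 14.2, 61.9 and 142 CPM in the same order (-0.26 ± 0.87), also highest there. The signs of C2 and Masp1 turned without blank U (0.01 and 0.40) and without dopamine 1 (0.03 and 0.22).

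The remaining genes with a mean of at least 5 CPM were the collectin Colec12 (76.3 to 235 CPM), thrombomodulin Thbd (92.6 to 224 CPM), C1qbp (63.3 to 132 CPM), the rodent C3 convertase regulator Cr1l (14.1 to 30.8 CPM), Csmd1 (4.58 to 20.4 CPM), Csmd2 (1.82 to 18.0 CPM) and the complement inhibitor Susd4 (4.595 to 14.5 CPM). None had groups that did not overlap. The pore genes were low: Hc, which encodes mouse C5, reached 5.56 CPM and C8g 7.10 CPM, C7 had no count, and C6, C8a, C8b and C9 stayed under 1 CPM. C1q subunits C1qa, C1qb and C1qc, known products of macrophages and microglia, stayed at 2.03 CPM or less. The anaphylatoxin receptor C3ar1 had 0.458 to 4.26 CPM, and C5ar2 had no count. Cfd, which encodes factor D, the protease that cleaves factor B, did not pass the filter on low counts: it had 0 counts in each blank library and 1, 25 and 24 counts in dopamine 1, 2 and 3. A count of 0 allows up to 3 counts, so dopamine 1 could not be told from the blank libraries at this depth.

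**Figure D4:**
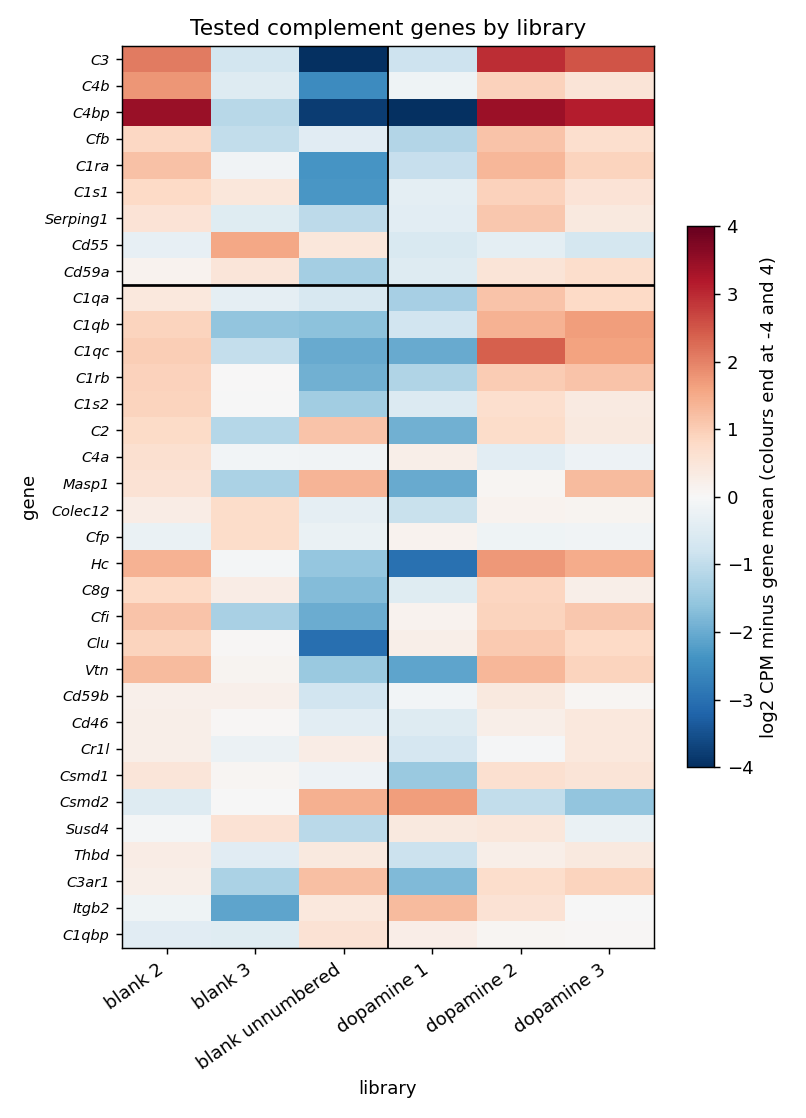
Log2 CPM minus each gene's mean over the 6 libraries (colour, ending at -4 and 4) for the tested complement genes (rows, the 9 members above the line) by library (columns, blank left of the line). C3 and C4bp are high in blank 2, dopamine 2 and dopamine 3, whereas Cd55, Masp1 and C2 show other patterns.

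Of 29 genes of inflammatory inducers and factors, 24 were tested, of which edgeR and DESeq2 called 0, and 0 had an unadjusted edgeR p below 0.05. The fold changes had a median of 0.07, which fell to -0.003 when scaled by library totals alone. In the main fit 14 were on the higher side and 10 on the lower, beside 51.7% of all tested genes on the higher side. Il6, a cytokine that induces acute-phase genes, was at 88.8, 94.4 and 6.65 CPM in blank 2, blank 3 and blank U and at 0.286, 23.5 and 16.2 CPM in dopamine 1, 2 and 3. The highest Il6 was in blank 3, where C3 was intermediate, so the order differed from that of C3. Stat3, a factor that acts downstream of IL-6, was at 335, 265.5 and 93.6 CPM and at 154, 314.5 and 324 CPM in the same order. Il1b, Tnf and Ifng stayed under 1 CPM in each library.

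In the deposited table (GRCm39) the members lie on 4 chromosomes. C3 (ENSMUSG00000024164) spans 57510970 to 57535136 of chromosome 17, where C4b (ENSMUSG00000073418, 34947354 to 34962856) and Cfb (ENSMUSG00000090231, 35075350 to 35081494) also lie. Cd55 (ENSMUSG00000026399, 130366764 to 130390481) and C4bp (ENSMUSG00000026405, 130562510 to 130589369) are neighbours on chromosome 1, in the cluster of complement regulators, yet had the least similar profiles of the 36 pairs, with a root mean square difference of 3.85 log2 units. Serping1 (ENSMUSG00000023224, 84595731 to 84605788) and Cd59a (ENSMUSG00000032679, 103926146 to 103945699) are on chromosome 2, and C1ra (ENSMUSG00000055172) and C1s1 (ENSMUSG00000038521) are on chromosome 6. These are whole gene spans.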

How the data were processed

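Per the labels' protocols, RNA was amplified with a SMART-Seq HT kit and read as 150 bp pairs on a NovaSeq instrument. The authors deposited raw read counts per Ensembl gene and library, with gene lengths in other columns, per the file headers. The submitters' processing notes name GRCm39. The aligner, counter and strand setting were not given in the sources used here. A further 6 columns, of FPKM, were not used, and FPKM was recomputed from counts. Of the blank count columns, 1 carries no number and was used as a blank library.

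The fit of dopamine against blank used edgeR 4.0.16 in R 4.3.3, with filterByExpr (minimum count of 10), TMM factors and a 2-sided quasi-likelihood test, and Benjamini-Hochberg adjustment over 15420 genes. SE is the log2 fold change divided by the root of F. Alternatives used DESeq2 1.42.0, limma 3.58.1 (pseudocount of 1), other scaling, no filter, each library left out, and a replicate block. The steps were tested on simulated data. The members and gene lists were chosen with earlier results of these data known; some listed genes are not reported here and are in no list count. Named genes were the members, pathway genes averaging at least 5 CPM, and nearest profiles. Il6, Stat3, Cebpb, Cebpd, the low pathway genes, the overlapping Gm20547, the paralogs and the markers were named after their values were seen. Bounds on unseen genes (3 counts) and counts cover counting error only. Reads lack molecular identifiers, so PCR copies of 1 molecule count separately.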

Additional observations from a re-analysis of the deposited data

How the results depend on the processing

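Over 13 alternatives, 0 members, 0 other complement genes and 0 inducer genes were called by edgeR, DESeq2 or limma. Over all genes the count was 0 in the edgeR and limma fits and 20 in DESeq2. Of 244 single-gene fold changes under alternatives, for 19 genes, 211 kept their direction, and 33 changed sign, 13 of them with no single library left out; the cause was not tested. In limma, C4b was 0.35, and Cfb was not tested. With library totals alone Csmd1 was -0.048. Among the numbered count columns the groups share the numbers 2 and 3. With the replicate block on those 4 libraries, 0 genes were called, and C4b was 0.051, C2 0.74, Masp1 1.03, Cr1l 0.18, Susd4 -0.15 and Thbd 0.40. Without the block on the same libraries, a fit added after seeing the data, C2 was 0.48, Masp1 0.88, Cr1l 0.19, Susd4 -0.14 and Thbd 0.35. Deviations from group means correlated at 0.586 for the pair numbered 2 and at -0.272 for the pair numbered 3. Blank 2 also correlated at 0.517 with dopamine 3. With 3 libraries per group such deviations are not independent, so whether same-numbered libraries are paired cannot be told from them. With each library left out in turn, ranges were -0.57 to 1.67 for C4b, -0.17 to 0.80 for C1s1, -0.92 to 0.031 for C2, -1.20 to 0.40 for Masp1, -0.46 to 0.085 for Cr1l, -0.32 to 0.44 for Csmd1, -1.83 to 0.67 for Csmd2, -0.044 to 0.74 for Susd4, -0.34 to 0.19 for Thbd and -0.0034 to 0.62 for C1qbp. The median of the other complement genes ran from 0.04 to 0.52 and that of inducers from -0.15 to 0.27. Low counts limit Cfb, with 8 to 60 counts per library, and C4bp, with 4 counts in dopamine 1 and 15 in blank U.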
